A study of Homo sapiens with 16 samples.

Results

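The subject is the change in reverse-transcription stops when Terminator treatment was added to CMC treatment in HCT116 cells, a human colorectal carcinoma line. A member is a genomic position that was listed in both Terminator tables and both CMC+ tables, with the same 31-base sequence and at least 20 covering reads in each of the 4 libraries. Of 12648 positions listed in all 4 tables, 12415 had the same sequence and 12239 were members, out of 719918 positions listed in any of the 10 tables of the series. Because ribosomal RNA (rRNA) genes and other genes are repeated, the members stood for 8143 distinct sequences in 505 genes, 3334 at U and 4809 at other bases. Unless stated, values below are for 1 position per sequence. The edge of the coverage rule was described with every copy of a sequence counted. There the 97 positions whose lowest coverage was 20 to 25 reads had a median log2 difference of 0.23. The 78 just outside the rule, at 15 to 20 reads, had 0.01.

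The series measured stops in polyadenylated RNA of 3 cell populations, with 16 libraries forming 8 groups of 2. According to the labels, wild-type HCT116 RNA of both groups was fragmented to about 250 nt, treated with 0.2 M CMC for 20 min at 37 °C and kept in carbonate buffer for 6 h. The names of the deposited tables of both groups also carry Lacz, and what this says of the cells was not settled here. The CMC+ group carries the label steps CMC+, RA3+ and DA3+, and the CMC+ Terminator group carries these and also AP5+, Terminator+ and XhoI. What AP5, RA3 and DA3 stand for is not stated, so the effect of Terminator cannot be told apart from that of the other added steps. Nothing says that the replicates came from separate cultures, so p-values measure only the spread between these libraries. Background levels came from 2 HCT116 libraries without CMC (CMC-), and HEK293T cells, a human embryonic kidney line, supplied a parallel pair of groups (their Terminator group is labelled AP5+, Terminator+ and RE+).

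CMC is a carbodiimide that forms a stable adduct on pseudouridine, the C5-linked isomer of uridine, and reverse transcriptase stops next to that adduct. Pseudouridine is installed in rRNA and spliceosomal RNA mostly by the dyskerin complex with H/ACA guide RNAs, and in tRNA and mRNA by stand-alone enzymes such as TRUB1 and PUS7. Terminator is an exonuclease that degrades RNA with a 5′ monophosphate and spares capped and triphosphate ends. The stop percent used here is stop reads over covering reads at a position, where covering reads include the stops. A stop by itself does not identify a pseudouridine: structure, other modifications and fragment ends also end cDNAs, and these are seen at every base.

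The 21-base windows below are those of U that the results turn on, taken from the deposited tables, written as DNA, with the position of the stop in capitals. The first 4 are positions named for a large rise in rRNA or mRNA, the next 3 had among the highest levels, and the last 3 lie in the contexts that TRUB1 or PUS7 is known to recognise.
RNA28SN2 nt 3804: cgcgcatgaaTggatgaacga
RNA18SN3 nt 1625: attgcaattaTtccccatgaa
PTMA nt 625: ccgtgggcagTgccacccgca
FTH1 nt 462: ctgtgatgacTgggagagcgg
MALAT1 nt 1261: tttaaaattgTaggacttgtt
RN7SK nt 249: ggtccatttgTaggagaacgt
MT-TQ nt 20: gtgtgataggTggcacggaga
RNA18SN1 nt 1047: agtcggaggtTcgaagacgat
MT-TL1 nt 57: agtcagaggtTcaattcctct
RPLP1 nt 1766: atctgcaatgTaggggccggt
Nucleotides (nt) are counted in the transcript to which the tables assign the position.

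Counting differed between the 2 pairs of tables. Over all listed positions, every stop and covering count in the Terminator tables was whole, while 51.9 and 51.1 percent of stop counts and 20.4 and 19.2 percent of covering counts were whole in the CMC+ tables. Only 90 of the 8143 sequences had whole counts in all 4 libraries. Covering reads also differed, and whether counting had a part in it was not tested. In rRNA, U had a median of 7500 and 10000 covering reads with Terminator and 998 and 1290 without, although the library totals behind the authors' RPM (22500000 and 24000000 against 8650000 and 9980000 reads) differed far less. In mRNA the order was the opposite, with medians of 108 and 117 covering reads at U with Terminator and 156 and 193 without. The ratio of stops to covering reads does not use these totals. An effect of counting on that ratio cannot be told apart from the added steps within HCT116. In HEK293T both groups hold fractional counts, and values from there are given beside the results. Over all members the median position had 382 and 414 covering reads with Terminator, 384 and 505.9 without, and 37.3 percent of sequences had fewer than 10 stop reads in a CMC+ library.

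The tables also list positions unequally. Each Terminator table lists a position only where its stop ratio is not below that of its CMC- library, so all Terminator ratios of members lie at or above the CMC- ratio of the same number. The CMC+ tables have control columns of their own, and which library these hold is not settled. The CMC+ ratios were not bound by the CMC- values of the Terminator tables. Of the 8143 members, 1640 (20.1 percent) had a CMC+ ratio below that CMC- ratio of the same number in at least 1 replicate. The CMC- levels throughout are those of the Terminator tables, whose counts are whole, so here they stand beside fractional CMC+ counts, and the part of counting in this order was not tested. At these 1640 the median log2 difference was 0.69, and at the 6503 members whose CMC+ ratio met the same condition it was 0.22. The part of this listing in the results was not tested beyond the values given for those 6503.

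Stops were more frequent with Terminator at both U and other bases, and the difference was larger at U. The median stop percent of the 3334 U was 6.25 and 5.73 in the 2 Terminator libraries, 4.62 and 4.15 in the 2 CMC+ libraries and 3.58 and 3.15 without CMC. At the 4809 other bases it was 4.04 and 3.59 with Terminator, 3.18 and 2.91 with CMC alone and 2.63 and 2.35 without CMC. The Terminator medians lay above the CMC+ medians in both sets, with no overlap between libraries. The median log2 difference was 0.38 at U (quartiles 0.10 and 0.72), 0.26 at other bases (0.01 and 0.61) and 0.31 over all members. With 2 libraries a group, an exact permutation test of these medians could not pass 0.05, and none is given.

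Both Terminator libraries lay above both CMC+ libraries at 1984 U (59.5 percent) and at 2510 other bases (52.2 percent). Both lay below at 5.64 percent of the U members and 8.38 percent of the remaining ones. Over all members the shares were 55.2 percent above and 7.26 percent below. By edgeR's quasi-likelihood test (adjusted p under 0.05 over all members), the stop ratio rose at 526 U (15.8 percent) and fell at 2 (0.06 percent). Among other bases it rose at 631 (13.1 percent) and fell at 9 (0.187 percent). Over all members the shares were 14.2 and 0.135 percent. Relative to the shift of all positions, which TMM scaling removes, 164 of the 3334 U were higher and 34 lower. Of the 4809 other bases, 200 were higher and 58 lower. That shift is 0.31 on the log2 scale, and under TMM the median was 0.07 for U and -0.05 for other bases. Among the 6503 members under the equal listing condition, the medians were 0.29 and 0.18, and 258 of 2688 U and 279 of 3815 other bases were called higher. Without CMC+ replicate 2, calls fell to 155 U and 171 other bases.

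The distance between U and the other bases can be read inside each library, where any scale factor of that library drops out. The median log2 stop ratio of U exceeded that of other bases by 0.63 and 0.67 in the Terminator libraries, by 0.54 and 0.51 in the CMC+ libraries and by 0.44 and 0.42 without CMC. The 3 groups did not overlap. In the 2170 members also measured in HEK293T the distance was 0.69 and 0.67 with Terminator and 0.54 and 0.55 without in HEK293T libraries, and 0.60 and 0.63 against 0.50 and 0.46 in HCT116 libraries. RNA classes were unequally represented, mRNA holding 41.3 percent of the U members and 34.2 percent of the other bases. Within mRNA the distance was 0.40 and 0.37 with Terminator and 0.31 and 0.32 without, and within mitochondrial mRNA 0.49 and 0.49 against 0.43 and 0.38. In rRNA it was 0.39 and 0.41 against 0.38 and 0.37, after only 0.12 and 0.15 without CMC. In mitochondrial rRNA the groups overlapped, at 0.29 and 0.32 against 0.32 and 0.29. In rRNA the larger step in this distance was thus between CMC- and CMC+. At the 90 sequences with whole counts in every library the group difference in this distance had the opposite sign (-0.15).

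**Figure D1:**
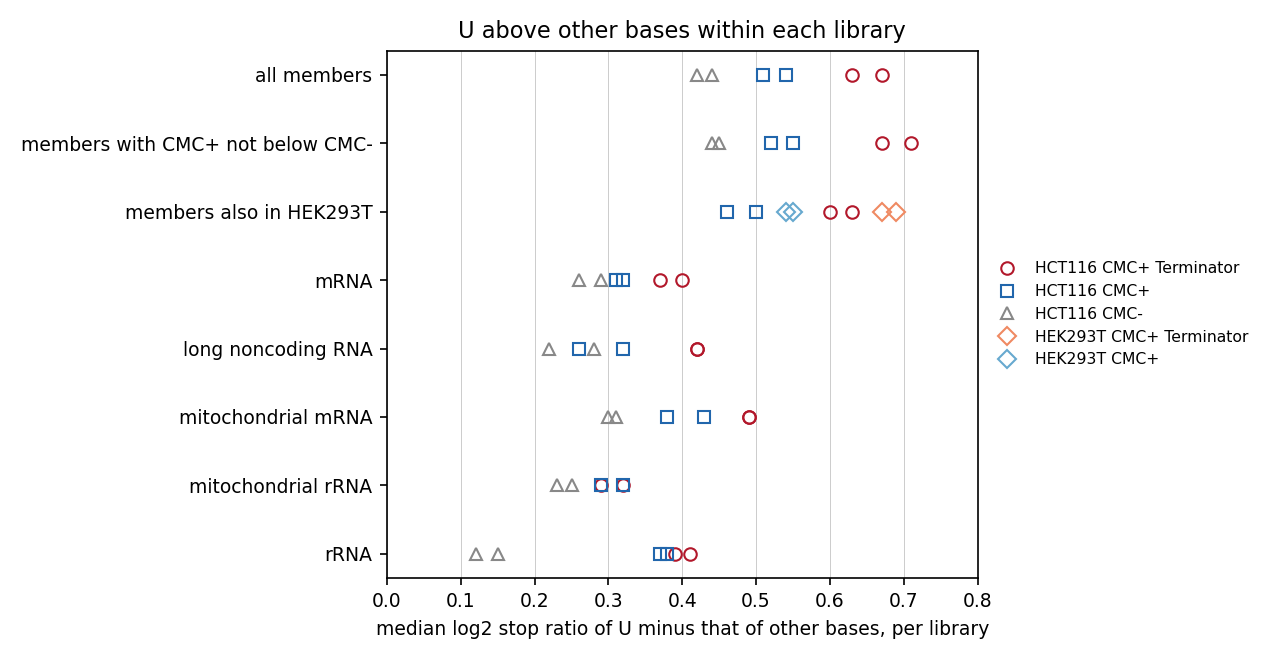
Median log2 stop ratio of U minus that of other bases (x axis) in each library (1 point per library, coloured by group) for the sets of positions on the y axis. Over all members the Terminator libraries (0.63 and 0.67) lie above the CMC+ libraries (0.54 and 0.51), whereas in mitochondrial rRNA the 2 groups overlap (0.29 and 0.32 in each).

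By RNA class, the largest median differences among classes of over 100 U were in mRNA and long noncoding RNA. The 1377 mRNA U had median stop percents of 8.97 and 8.16 with Terminator, 6.55 and 5.75 with CMC and 4.78 and 4.08 without CMC, a median log2 difference of 0.46. For the 1646 other mRNA bases these were 6.78 and 6.31, 5.29 and 4.61, and 3.92 and 3.42, a difference of 0.40. The 126 U of long noncoding RNA, 114 of them in the nuclear RNA MALAT1, had 9.73 and 8.36 percent with Terminator and 7.25 and 6.44 with CMC (difference 0.45), against 0.25 for the 85 other bases. That 0.25 was 0.40 without CMC+ replicate 1 and 0.15 without CMC+ replicate 2. In both classes the Terminator libraries lay above the CMC+ libraries.

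Mitochondrial RNA, transcribed from both strands of the mitochondrial genome and processed at tRNA boundaries, was described by transcript type. The 692 U of mitochondrial mRNAs went from 3.60 and 3.20 percent with CMC to 4.81 and 4.35 with Terminator (difference 0.41), and the 768 other bases from 2.67 and 2.47 to 3.43 and 3.10 (0.28). Mitochondrial rRNA U (186) went from 2.71 and 2.48 to 3.55 and 3.22 percent (0.39), and its other bases (336) differed by 0.30. The 33 U of mitochondrial tRNAs went from 7.90 and 7.02 to 9.41 and 10.5 percent, from a level of 3.82 and 3.20 without CMC, a difference of 0.51. At the 17 of these U measured in HEK293T the groups overlapped there, at 12.1 and 11.3 percent with Terminator and 13.1 and 10.1 with CMC (median 0.08, against 0.51 in HCT116 at the same U). For the 37 other bases of these tRNAs the groups overlapped, at 9.35 and 7.69 percent with CMC and 9.09 and 7.81 with Terminator.

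Cytoplasmic rRNA had smaller differences than mRNA and mitochondrial RNA. Its 618 U went from 2.79 and 2.62 percent with CMC to 3.38 and 3.13 with Terminator (difference 0.24), and its 1560 other bases from 2.15 and 2.02 to 2.59 and 2.35 (0.17). Relative to the shift of all positions, the rRNA medians were negative, at -0.07 and -0.15. At the U measured in both lines, the HEK293T medians were 0.33 in rRNA and 0.32 in mRNA, and those of HCT116 0.37 and 0.47. The tables list only positions with at least 5 treated stop reads, so the lowest ratio that can be listed depends on coverage. Covering reads at U were higher with Terminator in rRNA and lower in mRNA. The part of this minimum in the order of classes and in the falls was not tested. The 18S RNA of the small subunit (178 U, difference 0.27) and the 28S RNA of the large subunit (313 U, 0.25) had close medians, while those of 45S precursor segments outside the mature RNAs (109 U, 0.19) and 5.8S RNA (16 U, 0.10) were lower.

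Small RNAs were described by type, each with few positions. The 31 U of 7SL RNA, the scaffold of the signal recognition particle, differed by 0.33 and the 10 U of RMRP and related RNase MRP/P RNAs, which process precursor rRNA and tRNA, by 0.51. The 12 U of spliceosomal RNAs were at 21 and 19 percent with Terminator and 20.2 and 19.3 with CMC, so the groups overlapped, against 6.16 and 5.64 without CMC. The 15 U of small nucleolar RNAs had 7.81 and 6.86 percent with Terminator and 9.16 and 6.73 with CMC (difference -0.05). Both types were above their CMC- levels with CMC alone. Of the 12 spliceosomal U 2 were called higher (16.7 percent, beside 15.8 percent of all U), and of the 15 others 0. In HEK293T, 7 of these spliceosomal U were at 33.5 and 33.6 percent with Terminator and 25.0 and 22.8 with CMC. Their median difference was 0.43 there and 0.13 in HCT116. At 5 of the small nucleolar RNA U it was 0.28 in HEK293T and 0.10 in HCT116. Pseudogene positions, whose reads can also match the parent gene, were split by gene type and name. The 87 U of unprocessed pseudogenes with names starting in MT, called mtDNA-like here, differed by 0.26. The 135 U of other pseudogenes differed by 0.24, and these include MTND4P12 (13 U, median 0.49), a mitochondrial copy by its name. MTRNR2L8 and MTRNR2L12 were counted with mRNA.

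**Figure D2:**
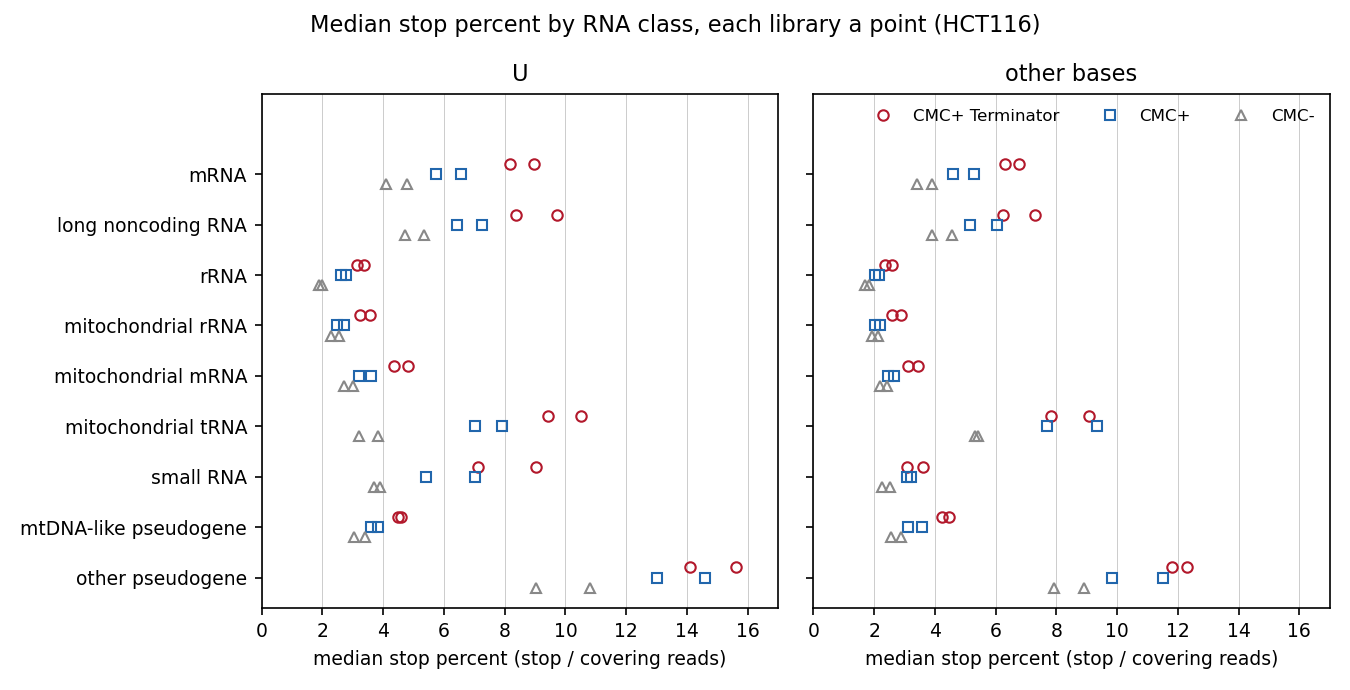
Median stop percent (x axis) of U (left) and other bases (right) in each RNA class (y axis), with 1 point for each HCT116 library. Terminator libraries lie to the right of CMC+ libraries at U of mRNA (8.97 and 8.16 against 6.55 and 5.75 percent) and overlap them at other bases of mitochondrial tRNA.

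The share of called positions followed a different order from the size of the difference. By edgeR, 37.1 percent of mitochondrial rRNA U (69 of 186) and 25.4 percent of rRNA U (157 of 618) were higher, beside 15.8 percent of all U. In mRNA 10.3 percent (142 of 1377) were higher, and in long noncoding RNA 3.17 percent (4 of 126). Coverage moved with the called share, and its part was not tested. By coverage, 30.1 percent of the 1011 best covered U were called, and 4.43 percent of the 655 whose lowest coverage was 50 to 100 reads. The median log2 difference changed little over the same bins, from 0.42 at 50 to 100 reads to 0.33 at the best covered U. The smallest called difference was 0.73 in mRNA U and 0.33 in mitochondrial rRNA U, beside median differences of 0.46 and 0.39 over all U of these classes. Without recentring, the 11 positions called lower lay in rRNA, 10 of them in 28S and 1 in 45S precursor. Relative to the shift of all positions 92 of the 8143 members were called lower, 34 of 3334 U and 58 of 4809 other bases. In rRNA these were 19 of 618 U and 38 of 1560 other bases, and in mitochondrial rRNA 11 of 186 and 9 of 336. In mitochondrial mRNA they were 3 of 692 and 3 of 768, and in small RNA 1 of 80 and 8 of 120.

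**Figure D3:**
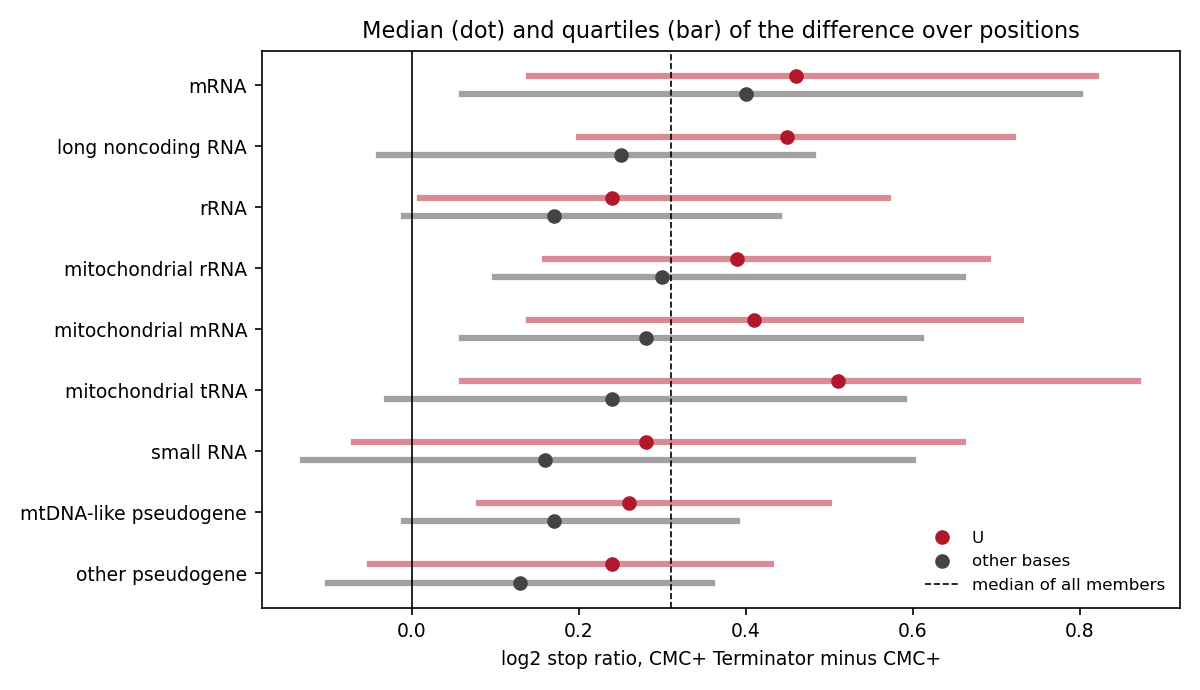
Log2 stop ratio of CMC+ Terminator minus CMC+ (x axis) for U and other bases of each RNA class (y axis); dots are medians over positions, bars run from the lower to the upper quartile, and the dashed line is the median of all members, 0.31. Medians of U lie above those of other bases in each class shown, for example 0.24 against 0.17 in rRNA, 0.46 against 0.40 in mRNA and 0.51 against 0.24 in mitochondrial tRNA.

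Copies of a sequence and whole counts were described separately. The 2517 U whose sequence was listed once had a median difference of 0.40, the 292 with 2 copies 0.30 and the 525 with 3 or more 0.31. For other bases these medians were 0.29, 0.19 and 0.22. The 34 U and 56 other bases with whole counts in every library had medians of 0.61 and 0.47. Of these, 3 U and 3 other bases were called higher, beside 15.8 percent of all U and 13.1 percent of all other bases. This subset is 90 of the 8143 sequences, and the part of counting in the differences was not tested.

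Within mRNAs, the difference was smallest next to the annotated start. At nucleotides 1 to 20, where capped ends lie, the 12 U were at 6.67 and 7.31 percent with Terminator and 8.17 and 9.93 with CMC, a median of -0.12, and the 22 other bases had -0.07. At nucleotides 21 to 50 the medians were 0.13 (23 U) and -0.03 (42 other bases), at 51 to 100 they were 0.37 and 0.23, and beyond 100 they were 0.47 (1283 U) and 0.44 (1492 other bases). These windows rest on few positions near the start, 9 of the first 12 U being in ribosomal protein mRNAs, and the 4 of these U measured in HEK293T had a median of 0.34 there and 0.77 in HCT116. By region, U of the coding sequence (507) differed by 0.49, U of 3′ UTRs (150) by 0.45 and U of 5′ UTRs (48) by 0.39. Other bases differed by 0.44 in the coding sequence, 0.50 in 3′ UTRs and 0.12 in 5′ UTRs. A further 400 mRNA U lay in exons of noncoding transcripts (0.42), and 272 were not placed in a region (0.48). For other bases these were 526 (0.35) and 289 (0.51).

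Gene lists were described by their counts and medians. Of the 302 U in genes of large-subunit ribosomal proteins, 30 were called higher and 0 lower by edgeR, a median of 0.42. Of 178 U in small-subunit genes, 20 were called higher (median 0.31), and of 145 U in elongation factor genes 23 (0.38). Glycolysis genes had 9 of 82 U called (median 0.56), chaperones 7 of 79 (0.62), and cytoskeleton and keratin genes 14 of 141 (0.49). Initiation factors and poly(A) binding proteins had 3 of 36 (0.52), and splicing factor mRNAs 0 of 5 (median 0.20). For all mRNA U the median was 0.46 and the called share 10.3 percent, and the lists' called shares ran from 0 to 15.9 percent. Mitochondrial mRNAs of complex I, the first proton pump of the respiratory chain, had 41 of 309 U called (0.40), and the other mitochondrial mRNAs 82 of 383 (0.41). Over all mitochondrial mRNA U the called share was 17.8 percent.

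Single transcripts spread around these medians. MT-ATP6, which encodes a subunit of ATP synthase, had a median of 0.73 over 50 U with 21 called. MT-ND2, a complex I subunit, had 0.23 over 44 U with 6 called. The called share was 17.8 percent over all mitochondrial mRNA U and 15.8 percent over all U. Among mRNAs, PKM (pyruvate kinase, 20 U) had 0.75, ACTB (beta-actin, 22 U) 0.70, RPLP0 (a ribosomal stalk protein, 25 U) 0.70 and EEF1A1 (translation elongation factor 1 alpha, 74 U) 0.31. PKM U were at 10.2 and 8.72 percent with Terminator and 5.69 and 5.04 with CMC. KRT8, a keratin of simple epithelia, had 0.56 over 16 U, and KRT18 and KRT19 were also listed in all 4 tables, while PTPRC, COL1A1, COL3A1, PECAM1 and ALB, markers of other cells, had 0 listed positions.

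Large rises in mRNA are given for positions with at least 100 covering reads in each library. PTMA encodes prothymosin alpha, an acidic chromatin protein, and its U at chr2:231712981 (hg38, 3′ UTR, exon 5) had 18.7 and 13.3 percent with Terminator, 3.10 and 3.12 with CMC and 6.97 and 5.72 without CMC. The edgeR log2 difference was 2.34 ± 0.25 (SE), adjusted p 1.74e-05. Of 278 reads 52 stopped there in Terminator replicate 1, and 8.93 of 288 in CMC+ replicate 1. In HEK293T the same U was at 4.73 and 4.92 with Terminator and 5.06 and 3.24 without, so the groups overlapped there. FTH1, the heavy chain of the iron store ferritin, had 18.3 and 19.1 percent at chr11:61965094 (coding sequence, exon 4) with Terminator, 4.85 and 5.16 with CMC and 2.94 and 4.53 without (1.90 ± 0.23, adjusted p 4.31e-05 by edgeR). The CMC+ level of FTH1 was not below its CMC- level in either replicate.

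In the other mRNA U given here, PTMA included, the CMC+ level was below the CMC- level in at least 1 replicate. EEF1A1 at chr6:73519222 had 3.70 and 4.79 percent with Terminator, 0.789 and 0.765 with CMC and 3.53 and 3.24 without CMC. The edgeR difference between Terminator and CMC+ was 2.38 ± 0.29 (adjusted p 4.31e-05), and the CMC- levels lay between those of the 2 groups, next to Terminator. RPS2, a small-subunit protein, had 7.34 and 7.43 percent at chr16:1962901, 1.97 and 1.45 with CMC and 5.95 and 4.86 without. In HEK293T RPS2 was at 1.26 and 1.45 with Terminator and 1.37 and 1.53 without, a log2 difference of -0.10, and the difference between the lines was not tested. GAPDH, a glycolytic enzyme (18.3 and 14.7 against 2.43 and 4.56 percent), and RPL10, a large-subunit protein (15.9 and 14.5 against 3.22 and 3.13), rose by 2.21 and 2.32. The CMC+ libraries held few stop reads at these U: 5.01 and 6.54 at EEF1A1, 5.75 and 11.3 at GAPDH and 6.43 and 8.42 at RPL10. Positions with fewer than 5 treated stop reads are not listed. PABPC1, the cytoplasmic poly(A) binding protein, rose by 1.79 at nucleotide 350 (11.3 and 11.1 against 4.02 and 2.65 percent).

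**Figure D4:**
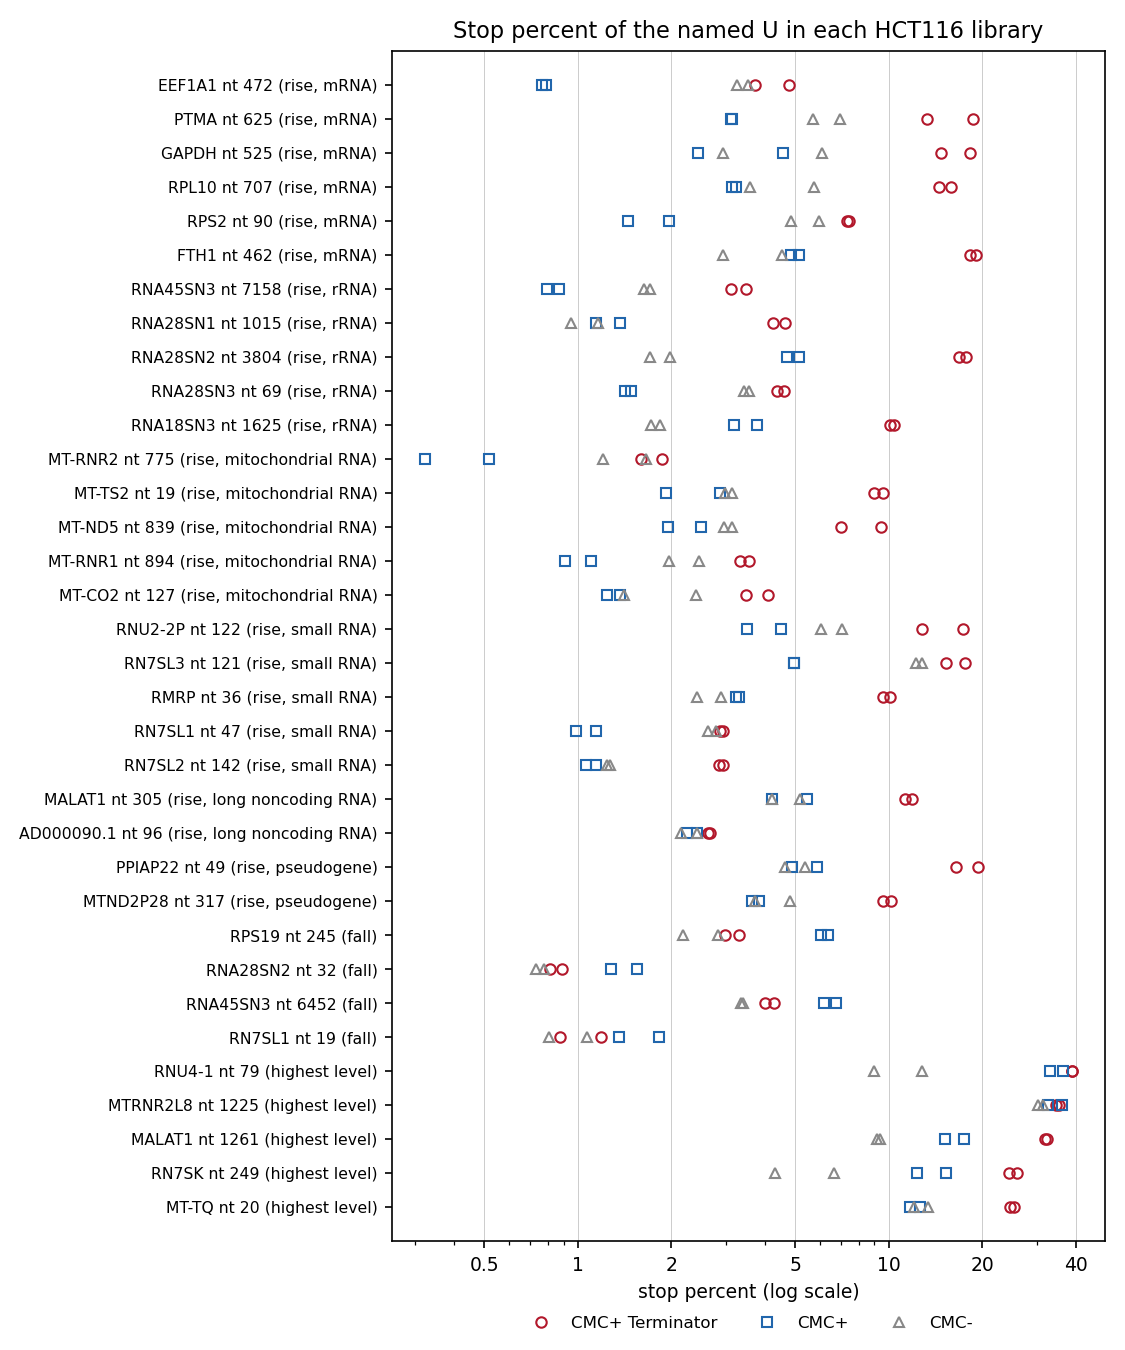
Stop percent (x axis, log scale) of named U (PABPC1 not plotted; y axis: gene, transcript nucleotide and the reason it was named) in the 6 HCT116 libraries. EEF1A1 has both CMC+ points (0.789 and 0.765) below its CMC- points (3.53 and 3.24), while RNA28SN2 nucleotide 3804 and RNA18SN3 nucleotide 1625 rise from CMC- through CMC+ to Terminator.

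In rRNA a stepwise rise was seen at nucleotide 3804 of the 28S gene RNA28SN2 (chr21:8217690, 3 copies). Its stop percent was 1.98 and 1.70 without CMC, 5.13 and 4.71 with CMC and 17.7 and 16.8 with Terminator, on 15701 covering reads in Terminator replicate 1 and 1432 in CMC+ replicate 1. The log2 difference was 1.81 ± 0.10 (adjusted p 1e-07 by edgeR). HEK293T showed the same order, with 7.19 and 6.48 percent with CMC and 13.7 and 16.1 with Terminator. Nucleotide 1625 of the 18S gene RNA18SN3 (chr21:8394289, 3 copies) went from 1.84 and 1.72 without CMC through 3.78 and 3.17 to 10.1 and 10.4 percent with Terminator (1.57 ± 0.14, adjusted p 3.22e-06 by edgeR), and from 3.58 and 3.17 to 6.05 and 5.21 in HEK293T. At nucleotide 1015 of RNA28SN1 the stop percent was 1.37 and 1.14 with CMC and 4.63 and 4.23 with Terminator (log2 1.81 ± 0.23). RNA45SN3 nucleotide 7158 (0.872 and 0.793 to 3.48 and 3.10 percent) and RNA28SN3 nucleotide 69 (1.48 and 1.42 to 4.61 and 4.37) also rose, by 1.95 and 1.63, but from CMC+ levels below the CMC- levels of 1.70 and 1.63 and of 3.56 and 3.42.

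Falls were rarer. At nucleotide 32 of 28S RNA (RNA28SN2, chr21:8213918) the stop percent was 1.28 and 1.55 with CMC, 0.887 and 0.811 with Terminator and 0.734 and 0.780 without CMC, a fall of 0.75 on the log2 scale (SE 0.16, adjusted p 0.00463 by edgeR), and the call was lost without CMC+ replicate 2 (adjusted p 0.322). The A at nucleotide 2450 of the same gene went from 1.48 and 1.03 to 0.322 and 0.329 percent (-1.87 ± 0.33, adjusted p 0.00446 by edgeR), on 8.25 stop reads in CMC+ replicate 1, and was not called without CMC+ replicate 1 (adjusted p 0.18). The G at nucleotide 7727 of RNA45SN3 (7.07 and 5.92 to 2.32 and 2.66 percent) and the A at nucleotide 733 of RNA28SN3 (7.08 and 10.1 to 3.89 and 4.41) also fell, with adjusted p-values by edgeR of 0.019 and 0.00454 that did not hold without CMC+ replicate 2 (0.248 and 0.574). The RNA45SN3 call was also lost without Terminator replicate 1 (0.0555) and without CMC+ replicate 1 (0.146). In mRNA, RPS19, a small-subunit protein, was at 6.05 and 6.38 percent with CMC and 2.97 and 3.30 with Terminator. It did not pass the test (edgeR adjusted p 0.172), nor did RN7SL1 nucleotide 19 (0.13) or RNA45SN3 nucleotide 6452 (0.133, and 0.0307 relative to the shift of all positions).

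In mitochondrial RNA a U rose in MT-TS2, a serine tRNA, at position 12225 of the mitochondrial genome, with 8.96 and 9.58 percent with Terminator, 2.86 and 1.92 with CMC and 3.12 and 2.97 without (log2 1.98 ± 0.28, adjusted p 0.000158 by edgeR). MT-ND5, a complex I subunit, at 13175 had 7 and 9.48 percent with Terminator and 2.49 and 1.95 with CMC (1.88 ± 0.28), and 7.20 and 6.65 against 4.26 and 4.24 in HEK293T. The rRNA positions MT-RNR2 2445 (1.59 and 1.86 against 0.321 and 0.517 percent) and MT-RNR1 1541 (3.55 and 3.33 against 1.10 and 0.907) rose by 1.95 and 1.77, yet MT-RNR1 1541 was at 2.11 and 1.93 against 2.11 and 1.98 percent in HEK293T. MT-CO2 at 7712 rose by 1.52 (adjusted p 0.000442 by edgeR). All 5 had a CMC+ level below the CMC- level in at least 1 replicate.

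Small RNAs with large rises were RNU2-2P, a U2 spliceosomal RNA gene, at nucleotide 122 (17.3 and 12.8 against 4.51 and 3.50 percent, log2 1.94 ± 0.31), and RMRP, the RNA of RNase MRP, at nucleotide 36 (10.1 and 9.6 against 3.23 and 3.29, log2 1.61 ± 0.23, adjusted p 0.000174 by edgeR). RMRP was also higher with Terminator in HEK293T, at 6.83 and 7.48 against 4.82 and 3.87 percent. The 7SL genes RN7SL3, RN7SL1 and RN7SL2 rose by 1.71, 1.43 and 1.33 at nucleotides 121, 47 and 142. RN7SL3 was at 15.3 and 17.6 percent with Terminator and 4.96 and 4.96 with CMC, beside 12.2 and 12.8 without CMC. RN7SL1 was at 2.86 and 2.93, 0.988 and 1.14, and 2.63 and 2.79 percent in the same order. RNU2-2P was at 7.05 and 6.04 percent without CMC, so of these small RNA positions RMRP alone had a CMC+ level that was not below the CMC- level in either replicate. In long noncoding RNA, MALAT1 nucleotide 305 had 11.3 and 11.9 percent against 5.46 and 4.20 (1.35 ± 0.27, adjusted p 0.0103 by edgeR, 0.13 relative to the shift of all positions), a call lost without Terminator replicate 2 (0.0744) or CMC+ replicate 2 (0.354). AD000090.1 was the only other gene of that class that met the naming rule, at 2.67 and 2.63 against 2.42 and 2.25 percent, and did not pass (edgeR adjusted p 0.777). Among pseudogenes, PPIAP22, a cyclophilin A copy, was at 16.5 and 19.4 percent against 5.89 and 4.88 (1.70 ± 0.28, adjusted p 0.001 by edgeR), and the mitochondrial copy MTND2P28 at 9.62 and 10.2 against 3.62 and 3.82 (1.39 ± 0.27). The MTND2P28 call (edgeR adjusted p 0.012) was lost without any 1 of the 4 libraries, at adjusted p-values of 0.0569 to 0.147.

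The U with the highest stop percent with Terminator differed in how their 3 groups were ordered. RNU4-1, a U4 spliceosomal RNA, at nucleotide 79 was at 38.8 and 39.0 percent with Terminator, 36.3 and 33.0 with CMC and 12.8 and 8.97 without (edgeR adjusted p 0.716). MTRNR2L8, a nuclear copy of mitochondrial rRNA, was at 35.4 and 34.6, 36.2 and 32.5, and 31.3 and 30.3 percent in the same order, so its 3 groups lay close together (edgeR adjusted p 0.96). MALAT1 nucleotide 1261 (chr11:65503351) went from 9.14 and 9.36 percent without CMC to 17.5 and 15.2 with CMC and 32.4 and 31.9 with Terminator (log2 0.98 ± 0.17, adjusted p 0.00066 by edgeR). RN7SK, the 7SK RNA that holds the elongation factor P-TEFb inactive, at nucleotide 249 (chr6:52995869) went from 6.67 and 4.3 through 15.3 and 12.3 to 24.3 and 25.9 percent (0.87 ± 0.18, adjusted p 0.00427 by edgeR). Relative to the shift of all positions the adjusted p-values of these U were 0.065 and 0.184, and without CMC+ replicate 2 they were 0.0504 and 0.188. In HEK293T both were higher with Terminator as well, MALAT1 at 48.5 and 44.7 against 18.4 and 21.9 percent and RN7SK at 21.2 and 20.4 against 12.3 and 10.3. MT-TQ, a glutamine tRNA, at nucleotide 20 had 25.3 and 24.5 percent with Terminator, 12.6 and 11.7 with CMC and 13.4 and 12.1 without CMC (1.05 ± 0.15, adjusted p 0.000209 by edgeR).

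Rises of the same size occurred at bases that cannot carry pseudouridine. The C at nucleotide 296 of RPS2 was at 8.99 and 8.99 percent with Terminator and 1.97 and 1.26 with CMC (log2 2.50 ± 0.20, adjusted p 1.47e-06 by edgeR), above every U named here, and in HEK293T at 1.14 and 1.88 against 1.27 and 0.997. Without CMC this C was at 4.73 and 3.33 percent, above both CMC+ libraries. MT-ND1, a complex I subunit, had 9.44 and 8.75 percent at an A (position 3892) against 2.07 and 1.36 (2.42 ± 0.20), and its CMC+ level was not below the CMC- level in either replicate. RPS14, a small-subunit protein, rose by 2.26 at the C of nucleotide 2906 (15.2 and 13.3 against 3.19 and 2.83 percent, beside 3.03 and 3.35 without CMC).

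The sequence contexts of 2 stand-alone pseudouridine synthases were examined, GTTCNA with the stop at the second T for TRUB1, and TNTAA or TNTAG with the stop at the second T for PUS7, both on the transcript strand. Of the 76964 U listed in any of the 4 tables, 0.409 percent lay in the first and 1.43 percent in the second. The 11 members in the TRUB1 context had median stop percents of 10.1 and 10.2 with Terminator, 6.43 and 6.28 with CMC and 3.08 and 2.36 without, a median log2 difference of 0.47. The 66 in the PUS7 context had 5.21 and 4.89 with Terminator, 3.52 and 3.48 with CMC and 3.57 and 3.25 without, also 0.47. For U in neither context nor a run of U the median was 0.37, and for U in runs of at least 3 U it was 0.40. By edgeR 1 of 11, 14 of 66 and 432 of 2778 were called higher, or 9.09, 21.2 and 15.6 percent. RNA classes were not matched between contexts. Within mRNA the medians were 0.20 in the TRUB1 context (5 U) and 0.47 in the PUS7 context (11 U). They were 0.45 at the 1215 mRNA U in neither context nor a run, and 0.50 at the 146 in runs.

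The TRUB1 context covers the T loop of tRNAs and look-alike hairpins. MT-TL1, a leucine tRNA, at nucleotide 57 was at 0.775 and 1.56 percent without CMC, 6.35 and 7.29 with CMC and 11.3 and 20.3 with Terminator, a log2 difference of 1.26 ± 0.33 that did not pass (edgeR adjusted p 0.0715). The nuclear leucine tRNA tRNA-Leu-TAG-3-1 at nucleotide 64 was at 9.09 and 4.84, 21.8 and 22.8, and 36.8 and 32.5 percent in the same order (edgeR adjusted p 0.43). Nucleotide 1047 of 18S RNA (RNA18SN1) rose from 6.43 and 6.28 to 10.1 and 10.2 percent (0.69 ± 0.11, adjusted p 0.000484 by edgeR, 0.0973 relative to the shift of all positions). FAT1, a protocadherin, was at 12.0 and 8.98 percent with CMC and 17.9 and 20.0 with Terminator at nucleotide 11972 of its transcript, in the coding sequence (edgeR adjusted p 0.452). In the PUS7 context, RPLP1, a ribosomal stalk protein, rose at nucleotide 1766 from 5.81 and 3.45 to 8.43 and 11 percent (1.12 ± 0.26, adjusted p 0.00698 by edgeR, 0.133 relative to the shift of all positions). MALAT1 nucleotide 1261 and RN7SK nucleotide 249 also lie in the PUS7 context, while the other 4 MALAT1 members in it did not pass (edgeR adjusted p 0.164 to 0.935).

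In HEK293T, 2170 of the 8143 members were listed in all 4 tables with the same sequence and coverage. There the 1031 U had medians of 6.42 and 6.25 percent with Terminator and 5.26 and 4.62 with CMC (log2 0.30), against 0.40 in HCT116 at the same U. The 1139 other bases had a median difference of 0.22 in HEK293T and 0.29 in HCT116. Both Terminator libraries lay above both CMC+ libraries in HEK293T at 57.8 percent of these U and 52.4 percent of the other bases. Of the 255 U called higher in HCT116, 206 (80.8 percent) lay above in HEK293T and 1 below, with a median of 0.52, and of the 776 not called 390 (50.3 percent) lay above, with a median of 0.24. For other bases 170 of 225 called (75.6 percent) and 427 of 914 not called (46.7 percent) lay above. Among U with no overlap in HCT116, 457 of 734 went the same way in HEK293T without overlap and 24 the opposite way. Among other bases 422 of 762 went the same way and 38 the opposite way. These counts stand beside the shares of 57.8 and 52.4 percent above in HEK293T over all shared positions. The log2 differences of the 2 lines had a Pearson r of 0.39 and a Spearman rho of 0.40 across the 1031 U, and 0.37 and 0.34 across the other bases, as a description over positions that share base composition and gene. By class, HEK293T medians at the shared U were 0.33 in rRNA, 0.31 in mitochondrial rRNA, 0.24 in mitochondrial mRNA and 0.32 in mRNA. These rest on 351, 84, 184 and 318 U, at which the HCT116 medians were 0.37, 0.41, 0.47 and 0.47.

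**Figure D5:**
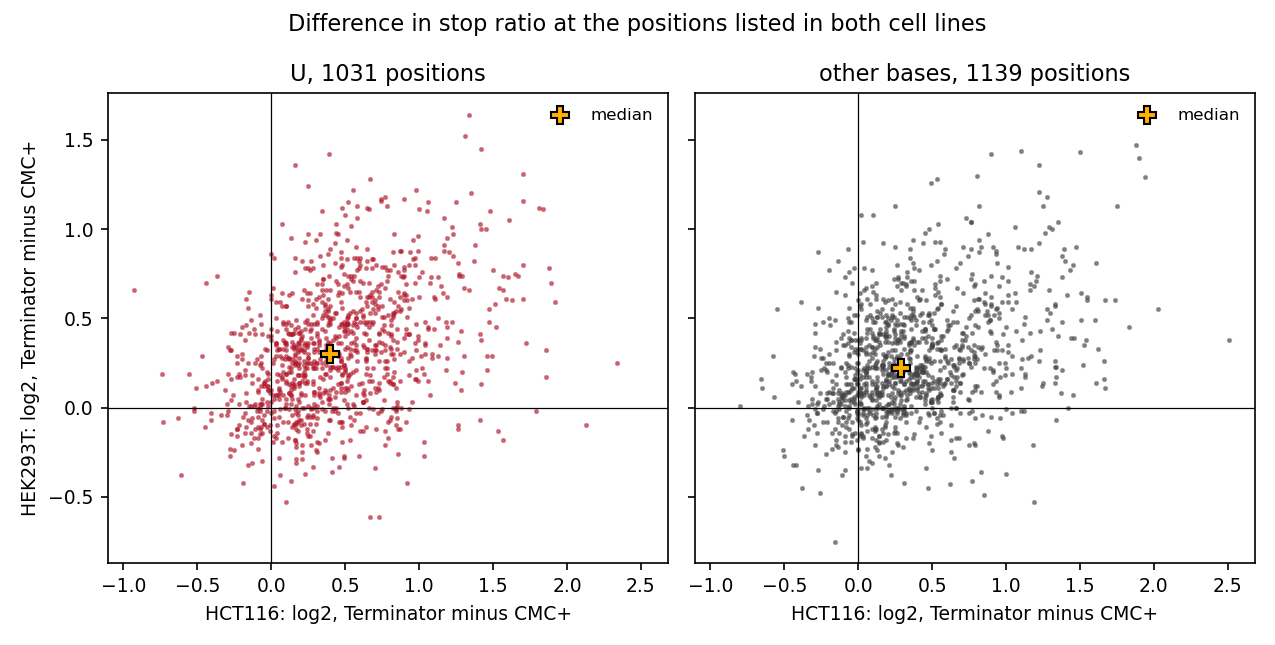
Log2 stop ratio of CMC+ Terminator minus CMC+ in HCT116 (x axis) and in HEK293T (y axis) at each position listed in both lines, U on the left and other bases on the right; the cross marks the medians, 0.40 and 0.30 for U. Of the 734 U without overlap in HCT116, 457 go the same way without overlap in HEK293T and 24 the opposite way. Among all 1031 shared U, 596 (57.8 percent) lie above in HEK293T.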

How the data were processed

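Stops were measured in polyadenylated RNA, and the 10 deposited tables pair 1 treated with 1 control library each. Per the submitters' processing notes, the tools were cutadapt 2.8 and STAR, whose version is not given in the sources used here, with hg38 as the build. Position names in the tables carry the name rtsSeeker. In the HCT116 Terminator tables the deposited stop and covering reads, so named per the file headers, are counts, all whole from the values. The authors deposited expected counts with fractions in the CMC+ and HEK293T tables, and how the authors counted reads that match several positions is not stated in the sources used here. The authors also deposited stop reads as RPM, from which library totals were taken. From the values, each deposited table lists positions with at least 5 treated and 1 control stop reads.

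Groups follow the labels. The members, lists and naming rule were chosen with earlier results of these data known. The sequence identity was required over all 31 deposited bases, and 1 position was kept per sequence, the one with the most covering reads. Stop reads, expected counts rounded, were fitted with edgeR 4.0.16 (glmQLFit, glmQLFTest; R 4.3.3) with log covering reads as offset and no block, with Benjamini-Hochberg adjustment across the 8143 members and no fold minimum. SEs of log2 differences were obtained as |log2| / sqrt(F). The fit was tested on simulated data. Log2 medians use the ratios as deposited, with no pseudocount. Alternatives were the replicate block, leaving out each library, coverage minimums of 50 and 100, at least 10 stop reads in 2 libraries, TMM, library totals, whole counts only, all positions, a fold of 1.5 and DESeq2 1.42.0. The equal listing condition and the distance of U from other bases within a library were added after the data were seen. Named positions have at least 100 covering reads in each library and are, 1 per gene, the largest non-overlapping rises of U (10 in mRNA, 5 in rRNA, 5 in mitochondrial RNA, 5 in small RNA, 3 in long noncoding RNA, 2 in pseudogenes), the 5 largest falls of U, the 5 largest rises and 3 largest falls of other bases, and the 5 U with the highest level; context members and single transcripts were named after their values were seen. Some positions that met the rule are not reported here. Of members with an Ensembl transcript, 91.5 percent were found in GENCODE 29, which gave regions and exons, and the base matched at 100 percent of the 6344 checked. No genome sequence was used here.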

Additional observations from a re-analysis of the deposited data

How the results depend on the processing

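Calls of higher U numbered 526 and ranged from 155 to 416 when 1 library was left out, and the 631 of other bases from 171 to 579, each lowest without CMC+ replicate 2. For U and other bases they were 164 and 200 under TMM (34 and 58 lower), 647 and 1622 with library totals (2089 and 2462 lower), 3 and 3 with whole counts, 258 and 279 under the equal listing condition, 822 and 1080 over all positions, and 149 and 170 by DESeq2, where 1354 and 1646 adjusted p-values were NA. No label pairs the libraries, and the deviations of same-numbered libraries had an r of 0.0775 over 8143 positions. At median stop reads of 13.8 to 19 in a library, this value cannot show whether they were paired. The replicate block gave 536 and 652.

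Whole counts gave medians of 0.61 for U, 0.61 for mRNA U and 0.47 for other bases, with classes under 5 positions left out. The equal listing condition gave 0.26 and 0.16 for mitochondrial rRNA U and other bases, 0.28 and 0.17 for mitochondrial mRNA, 0.18 for U of mtDNA-like pseudogenes and -0.03 for other bases of small RNA. A coverage minimum of 100 gave 0.23 for mitochondrial tRNA U, 0.32 for U of mtDNA-like pseudogenes and 0.38 for U of other pseudogenes. U of mtDNA-like pseudogenes had 0.34 with at least 10 stop reads and 0.33 over all positions. Leaving out 1 library gave 0.15 to 0.40 for other bases of long noncoding RNA, 0.11 to 0.25 for those of rRNA, 0.04 to 0.25 for those of small RNA, 0.24 to 0.40 for other bases of mitochondrial rRNA, 0.24 to 0.38 and 0.13 to 0.28 for U and other bases of mtDNA-like pseudogenes and 0.10 to 0.35 for U of other pseudogenes. The distance of U from other bases changed by 0.13 between groups, by 0.15 with at least 10 stop reads or equal listing, and by -0.15 with whole counts. Of these summary values 182 stayed within the spread or within 1.5 times the count, 40 moved and 2 turned sign.

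With library totals the sign turned at FTH1 (-0.35), PABPC1 (-0.35), MT-RNR2 (-0.32), MT-TS2 (-0.23), MT-ND5 (-0.62), MT-RNR1 (-0.38), MT-CO2 (-0.66), RMRP (-1.12), MALAT1 nucleotides 305 (-0.11) and 1261 (-0.90), MTND2P28 (-0.36), RNA45SN3 nucleotide 7727 (0.57), RNA28SN3 nucleotide 733 (1.10), RNU4-1 (-0.73), MTRNR2L8 (-0.94) and RN7SK (-0.86). Under TMM it turned at AD000090.1 (-0.12), RNU4-1 (-0.14) and MTRNR2L8 (-0.29), and without CMC+ replicate 2 at MTRNR2L8 (-0.06). The cause was not tested. In all, 37.3 percent of members had under 10 stop reads in a CMC+ library, and the part of depth in the calls was not tested.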

Other observations

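The base 3′ of the U and the level without CMC were also described. U followed by G (1389) had median stop percents of 7.58 and 7.11 with Terminator and 5.60 and 4.88 with CMC (median log2 difference 0.43), and U followed by C (613) had 4.14 and 3.77 against 3.21 and 2.93 (0.36). U followed by A (599) differed by 0.33 and U followed by U (733) by 0.36. Among the other bases, A (1705 positions) differed by 0.28, G (1649) by 0.25 and C (1455) by 0.24.

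U with a mean stop percent of at most 1 without CMC (93) had a median difference of 0.50, those between 1 and 2 (624) had 0.40, those between 2 and 5 (1672) had 0.39, those between 5 and 10 (751) had 0.36 and those over 10 (194) had 0.24. For other bases the same bins gave 0.32, 0.24, 0.27, 0.30 and 0.19. The CMC- level also enters the listing rule of the Terminator tables, and its part in this order was not tested.

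Lipid synthesis mRNAs of this line gave values close to the mRNA median. SCD, the stearoyl-CoA desaturase, had 11.3 and 9.59 percent over 49 U with Terminator and 7.52 and 7.51 with CMC (median difference 0.45, 6 called higher by edgeR), and FASN, the fatty acid synthase, had 13.4 and 11.3 against 11.2 and 7.99 over 19 U (0.34, 0 called higher). Of all mRNA U, 10.3 percent were called higher by edgeR. SCD and FASN were picked after their values were seen.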
